A study of Mus musculus with 14 samples.

Results

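The probes described here belong to growth factor families: ligands of the Fgf, Bmp, Tgfb, Gdf, Inhb, Wnt, Igf, Egf, Pdgf and Vegf groups, their receptors where these carry the family's symbol (the Wnt receptors as Fzd), and the proteins that bind the ligands. A probe was taken when the platform's gene table gave it a single gene symbol that begins with Fgf, Bmp, Tgfb, Wnt, Fzd, Igf, Pdgf, Vegf, Gdf, Egf or Inhb, with Igf2 left out. This gave 110 probes for 106 genes, of 7680 probes in all. By role, the genes were 63 ligands, 22 receptors, 10 binding proteins, 4 intracellular homologues of FGF (Fgf11 to Fgf14) and 7 others whose symbols begin the same way, such as Bmp1, which is a protease. Igf1r, Bmp1, Pdgfra and Fgf11 had 2 probes each. Fgf21, Wnt1, Wnt8a and Igfbpl1 lacked a value in 1 line, so 106 probes of 102 genes could be tested among 7423 features.

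Growth factors are secreted proteins that bind receptors on the cell that made them or on its neighbours. TGF-beta, activin and BMP dimers act through serine/threonine kinase receptors and Smad proteins, FGF, PDGF, VEGF, EGF and IGF through receptor tyrosine kinases, and Wnt proteins through Frizzled receptors. IGF binding proteins hold IGF outside the cell. In cultured lines, which ligands and receptors are transcribed can differ with the tissue of origin, which was not tested here.

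The data are 14 arrays with 2 colours and cover 11 mouse cell lines. On every array the Cy5 channel held RNA of 1 line, and the Cy3 channel held the Stratagene mouse reference, which is a commercial RNA pool. The lines are named in the labels as macrophage, myeloma, T-cell lymphoma, fibroblast, embryo fibroblast, myoblast, mammary tumor, testis, liver, kidney and skin, with no line name, strain, treatment or culture condition. There were 2 arrays for myeloma, 2 for fibroblast and 2 for mammary tumor, and 1 for each of the other 8. The short annotation calls every sample primary tissue, and the titles, which say cell line, were followed; each line is 1 line, so a value belongs to that line and not to its tissue. A value is the log2 ratio of line over pool of 1 probe on 1 array, so 0 is the level of the pool and 1 is a level 2-fold above it, and values of different probes do not order genes by abundance. The base and direction were judged from the values. The unlogged ratio, averaged over the lines, should lie near the level of the pool, and its median over all probes was 1.0031 for logs to base 2 with the line on top, 1.20 with the sign turned and 1.07 for natural logs. Over the probes whose variance over the lines lay above the 90th percentile, these medians were 0.923, 3.11 and 1.18. This separates base 2 from natural logs only weakly, and every fold below would differ with another base.

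The names of 4 lines were borne out by markers: the macrophage, myeloma, T-cell lymphoma and myoblast lines were highest of the 11 in 6 of 7, 6 of 6, 5 of 5 and 8 of 8 tested markers. The fibroblast line was highest in 2 of 6, the kidney line in 1 of 7, the testis line in 1 of 8, the skin line in 1 of 5, and the mammary tumor and liver lines in 0 of 8 and 0 of 5. The last 6 are therefore called by their labels only. The embryo fibroblast line had no marker list of its own and is also called by its label only. In the 6 fibroblast markers its line means ran from -4.11 (Postn) to -0.84 (Thbs2), and it was highest in none. Over the growth factor probes the 2 arrays of a line differed with an SD of 0.64 (mammary tumor), 0.86 (myeloma) and 1.03 (fibroblast) on the log2 scale, against 0.55, 0.79 and 1.003 over all features. Nothing in the labels says that 2 arrays of a line are 2 cultures, and the p-values of single lines therefore measure a spread that may be technical. Comparisons of groups of lines used line means, and their p-values measure the spread between lines. Adjusted p-values are from limma with Benjamini-Hochberg adjustment over all 7423 features, and a probe is called under 0.05. The number of arrays limits the precision, and no spot intensities were used here, so whether a low ratio lies above background is unknown.

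Growth factor probes varied more over the lines than the average probe. The range of a probe, its highest minus its lowest line mean, had a median of 2.60 on the log2 scale for the 106 tested probes and 2.04 for all tested features. Of the 106, 67 lay above the median of all features, and 22 (20.8%) lay above the 90th percentile of all features, 4.11. By family the median range was 4.34 for Pdgf, 4.06 for Tgfb, 3.38 for Igf, 2.88 for Vegf, 2.86 for Wnt, 2.44 for Inhb, 2.36 for Fzd, 2.21 for Bmp, 2.19 for Fgf, 1.77 for Gdf and 1.72 for Egf. By role it was 3.45 for binding proteins, 2.99 for receptors and 2.38 for ligands. All 8 Tgfb, all 5 Pdgf and all 4 Vegf probes lay above the median of all features, against 1 of 6 Gdf and 0 of 3 Egf probes. These are descriptions with no test. In a bulk RNA sample, fewer cells that express a gene and less RNA per cell cannot be told apart.

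**Figure D1:**
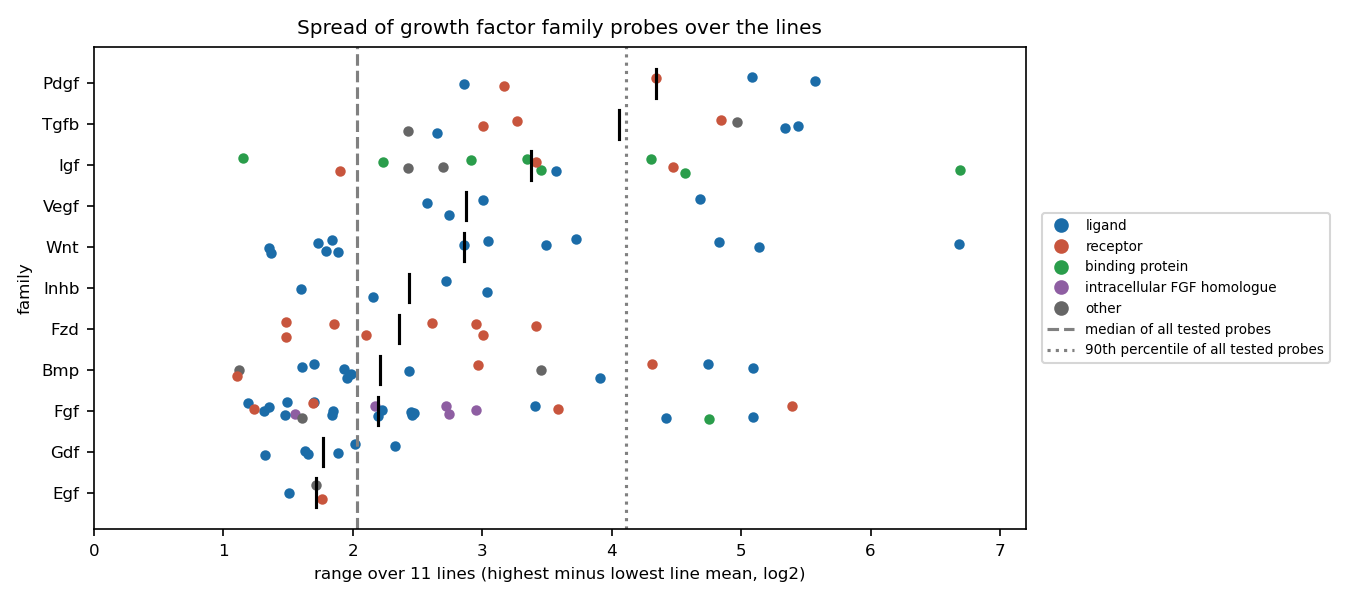
Range over the 11 lines (x axis, highest minus lowest line mean, log2) of each of the 106 tested growth factor probes, by family (y axis); points are probes coloured by role, black bars are family medians, and the dashed and dotted lines mark the median (2.04) and 90th percentile (4.11) of all tested probes. The Pdgf and Tgfb medians of 4.34 and 4.06 lie near the dotted line, while the Egf and Gdf medians of 1.72 and 1.77 lie left of the dashed line.

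The series title asks which genes single lines bring to the pool, so each line was compared with the mean of the other 10. Over the 11 comparisons 43 of 1166 tests of growth factor probes were called (3.69%), 21 higher and 22 lower, against 1.89% of 81653 tests over all features. With quantile normalization the split was 25 higher and 14 lower, and with arrays scaled to one spread 11 and 4. At least 1 comparison called 24 of the 106 probes (22.6%, against 14.8% of all features), and at least 2 called 10 (9.43%, against 4.14%). Calls fell on 14 of 60 ligand, 7 of 24 receptor and 3 of 9 binding protein probes, on 0 of 5 probes of the intracellular FGF homologues and on 0 of 8 others. In 30 of the 43 the line lay beyond every other line, and in 13 some other line was more extreme. No growth factor probe was unique to a line in the sense of a mean of at least 2 with every other line at or below 0, against 80 of 7600 probes in all.

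The embryo fibroblast line had the most called growth factor probes, 8 (2 higher, 6 lower), where 2.21% of all features were called, 0.418% higher and 1.79% lower. The macrophage line had 6, all lower (4.07% of all features, 1.94% higher and 2.13% lower). The myeloma line had 6, 4 higher and 2 lower (6.7% of all features, 3.29% and 3.41%). The T-cell lymphoma line had 6, 3 each way (4.58%, 2.22% and 2.36%), and the fibroblast line 6, 2 higher and 4 lower (1.23%, 0.835% and 0.391%). In the mammary tumor line 6 were called, 5 higher and 1 lower (0.862%, 0.714% and 0.148%). In the myoblast line 4 were called, all higher (0.795%, 0.552% and 0.242%), and in the testis line 1, higher (0.35%, 0.283% and 0.0674%). limma called 0 in the liver (0.0135% of all features), kidney (0.0135%) and skin (0.0%) lines, where 14, 19 and 11 growth factor probes had an unadjusted p under 0.05. A count of 6 is 5.66% of the 106 probes, below the share of all features in myeloma, a little above it in macrophage and T-cell lymphoma, and further above it in fibroblast and mammary tumor.

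These counts rest on few arrays, since the spread is estimated from the 3 lines with 2 arrays. Only 4 of the 43 line calls were kept without each of the 6 replicate arrays in turn: Bmp7 in T-cell lymphoma, and Tgfb3, Wnt10a and Igf2r in macrophage. All 4 were lost with arrays scaled to one spread (adjusted p = 0.102, 0.0754, 0.138 and 0.126), and Igf2r also with quantile normalization (0.0651). Without mammary tumor array 1 the embryo fibroblast, fibroblast, myoblast, mammary tumor and testis lines had 0 calls, T-cell lymphoma 2 and myeloma 3. Without mammary tumor array 2 those 5 lines again had 0, T-cell lymphoma 1, myeloma 3 and macrophage 3. Without myeloma array 1 the counts were 3 for T-cell lymphoma, 3 for embryo fibroblast, 1 for fibroblast, 1 for mammary tumor, 0 for myoblast and 0 for testis. Without myeloma array 2 they were 3, 3, 0, 1, 0 and 0, and 0 for myeloma itself. Without fibroblast array 1 the T-cell lymphoma line had 13, the fibroblast line 1 and the testis line 0. Without fibroblast array 2 these had 11, 0 and 2. No call reversed its sign in any of these fits. Of the 46 calls in all comparisons, 12 and 10 were kept without mammary tumor array 1 and 2, 17 and 14 without myeloma array 1 and 2, and 36 and 38 without fibroblast array 1 and 2. Beside each call below stands the array whose omission gave its highest adjusted p, with that p; leaving out another array can end it too. The arrays' own medians also differ: over all features the median difference was -0.42 in embryo fibroblast, -0.27 in kidney, 0.25 in skin and 0.19 in mammary tumor, and with each array centred the embryo fibroblast line had 4 calls.

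**Figure D2:**
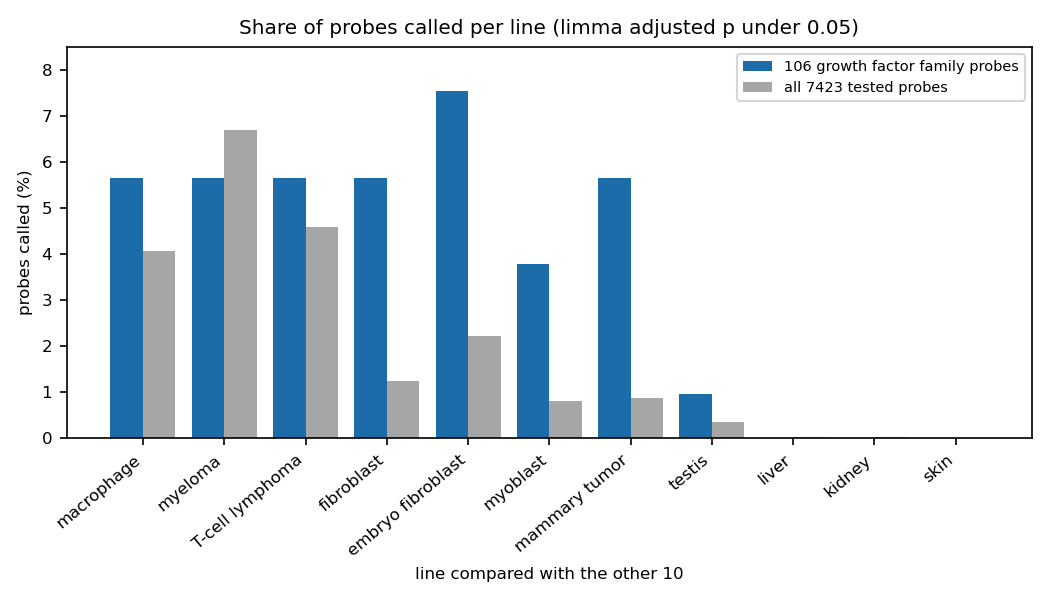
Percent of probes called by limma at an adjusted p under 0.05 (y axis) in each line against the other 10 (x axis), for the 106 growth factor probes (blue) and all 7423 tested probes (grey). The blue bar stands above the grey one in 7 of the 8 lines with a growth factor call and below it in myeloma, where 6.7% of all probes were called.

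Among ligands, Wnt10a, a secreted Wnt protein known for roles in skin appendages and teeth, was called in 7 of the 11 lines, 3 higher and 4 lower. No probe of the whole table was called more often, and 3 probes reached 7. Its log2 ratio was 1.39 and 1.38 on the myeloma arrays, 1.65 in myoblast, 1.73 in liver, 0.41 in T-cell lymphoma and 0.09 in kidney. It was -4.96 in macrophage, -4.16 in embryo fibroblast, -3.54 and -3.04 on the fibroblast arrays, -2.89 and -2.91 on the mammary tumor arrays, -2.68 in testis and -2.01 in skin. The lines thus fell into 5 at 0.09 or higher and 6 at -2.01 or lower. Against the mean of the other 10 lines it was 7.98-fold higher in myeloma (log2 difference 2.997 ± 0.26 SE, adjusted p = 0.00247), 9.75-fold higher in myoblast (adjusted p = 0.0259) and 3.80-fold higher in T-cell lymphoma (adjusted p = 0.0349). It was 15.8-fold lower in macrophage (-3.98 ± 0.36, adjusted p = 0.00761), 8.60-fold lower in embryo fibroblast, 4.41-fold lower in fibroblast and 3.29-fold lower in mammary tumor. Liver, with the highest mean of the 11 lines, was not called. P-values were adjusted within each line's comparison, and in liver 0.0135% of all features were called. The macrophage call was kept without each array. The myeloma call was lost without myeloma array 2 (adjusted p = 0.0516), the embryo fibroblast, T-cell lymphoma and mammary tumor calls without mammary tumor array 2 (0.0574, 0.108 and 0.588), the myoblast call without mammary tumor array 1 (0.0751) and the fibroblast call without fibroblast array 1 (0.0921).

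Wnt6, another secreted Wnt protein, had a similar order of lines. It was 1.64 in myoblast, 0.41 in liver, 0.65 and -0.02 on the myeloma arrays, -0.90 in T-cell lymphoma and -0.93 in kidney. It was -1.31 in skin, -1.50 and -1.22 in mammary tumor, -1.02 and -1.62 in fibroblast, -1.54 in testis, -2.78 in macrophage and -3.50 in embryo fibroblast. Myoblast lay highest and embryo fibroblast lowest, each apart from every other line. Wnt6 was 7.65-fold higher in myoblast (2.94 ± 0.42, adjusted p = 0.0461), 6.59-fold lower in embryo fibroblast (-2.72 ± 0.42, adjusted p = 0.0334) and 2.78-fold higher in myeloma (1.47 ± 0.31, adjusted p = 0.0399). The myoblast and embryo fibroblast calls were lost without mammary tumor array 2 (0.101 and 0.0858), and the myeloma call without myeloma array 1 (0.259).

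Wnt6 and Wnt10a lie next to each other on chromosome 1, with 0 protein-coding genes between them in the RefSeq table. Over the 11 line means Pearson's r was 0.90 and Spearman's rho 0.95, and r was 0.93 without the 2 lines farthest from the median; over the 14 arrays r was 0.88. All points share the array type and the reference pool, which is uncertain for mammary tumor array 1, so these are descriptions. Among 2220 pairs of neighbouring protein-coding genes on the array the median r was 0.14, and 5 pairs (0.225%) reached the r of Wnt6 and Wnt10a. Among 5565 pairs of growth factor probes 10 reached it, and the highest was 0.96 for Fgf7 with 1 of the 2 Fgf11 probes. The 2 Fgf11 probes had an r of -0.24 with each other. The other neighbouring pairs had r of 0.77 (Fgf4 and Fgf15), 0.60 (Fgf3 and Fgf4), 0.29 (Igfbp1 and Igfbp3), 0.20 (Inhbe and Inhbc) and 0.16 (Igfbp2 and Igfbp5).

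**Figure D3:**
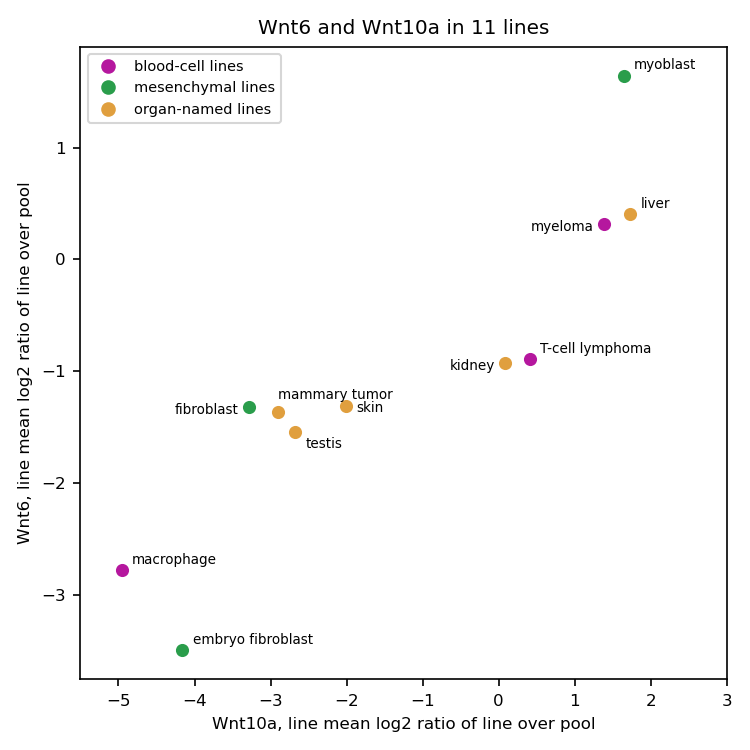
Line means of Wnt6 (y axis) against Wnt10a (x axis), both as log2 ratio of line over pool, for the 11 lines; colours mark blood-cell, mesenchymal and organ-named lines. Myoblast, liver and myeloma lie at the upper right and macrophage and embryo fibroblast at the lower left, with r = 0.90, and each corner holds lines of more than 1 colour.

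Of the other Wnt ligands, Wnt4, Wnt8b and Wnt2b were called once each. Wnt4, known for its part in kidney and gonad development, was 1.28 in testis and 1.07 in liver and below -0.4 on every other array, down to -3.56 in embryo fibroblast. The embryo fibroblast line was 6.14-fold lower than the other 10 (-2.62 ± 0.48, adjusted p = 0.0491), a call lost without mammary tumor array 1 (0.11). Wnt8b, a Wnt protein of the developing forebrain, was -3.15 in embryo fibroblast, where the other 10 lines ran from -1.15 through a median of -0.21 to 0.34. That line lay apart from all others, 7.10-fold lower (-2.83 ± 0.34, adjusted p = 0.0180), and lost the call without mammary tumor array 1 (0.0615). Wnt2b was 1.11 and 0.97 on the myeloma arrays against a highest other line of 0.40 in liver, a difference of 1.28 ± 0.25 (2.43-fold, adjusted p = 0.0288), lost without myeloma array 2 (0.181).

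The 3 TGF-beta ligands, which restrain growth of many cells and raise matrix production, each took a pattern of their own. Tgfb1 was 1.56 in T-cell lymphoma, and every other array lay between -1.09 and 0.11. That line was 4.74-fold higher (2.25 ± 0.34, adjusted p = 0.0221), and the call was lost without mammary tumor array 2 (0.0713). Tgfb2 was 2.09 in myoblast, 1.31 in testis, 0.67 in liver, and 0.50 and 0.42 on the mammary tumor arrays. It was below -1 elsewhere: -1.08 and -1.49 in myeloma, -1.51 in kidney, -1.55 in T-cell lymphoma, -1.74 in skin, -2.45 and -2.27 in fibroblast, -2.99 in embryo fibroblast and -3.25 in macrophage. It was called 9.96-fold higher in myoblast (3.32 ± 0.35, adjusted p = 0.0259), 5.90-fold lower in macrophage (adjusted p = 0.0175), 4.85-fold lower in embryo fibroblast (adjusted p = 0.0332) and 2.99-fold lower in fibroblast (adjusted p = 0.0484). Of these, the macrophage call was lost without mammary tumor array 2 (0.0514) and the myoblast and embryo fibroblast calls without mammary tumor array 1 (0.0751 and 0.0991). The fibroblast call was lost without each of the 6 arrays (0.135 at most, without mammary tumor array 1).

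Tgfb3 was -4.78 in macrophage and -3.48 and -3.47 on the myeloma arrays, while the other 11 arrays lay between -1.20 and 0.71. It was 18.2-fold lower in macrophage (-4.19 ± 0.35, adjusted p = 0.00761), which was kept without each array, and 6.74-fold lower in myeloma (-2.75 ± 0.26, adjusted p = 0.00287), which was lost without myeloma array 2 (0.0569). It was 3.31-fold higher in mammary tumor, where it was 0.49 and 0.71 (1.73 ± 0.26, adjusted p = 0.0418), lost without mammary tumor array 2 (0.596). T-cell lymphoma, the remaining blood-cell line, was -0.45 and lay among the other lines.

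**Figure D4:**
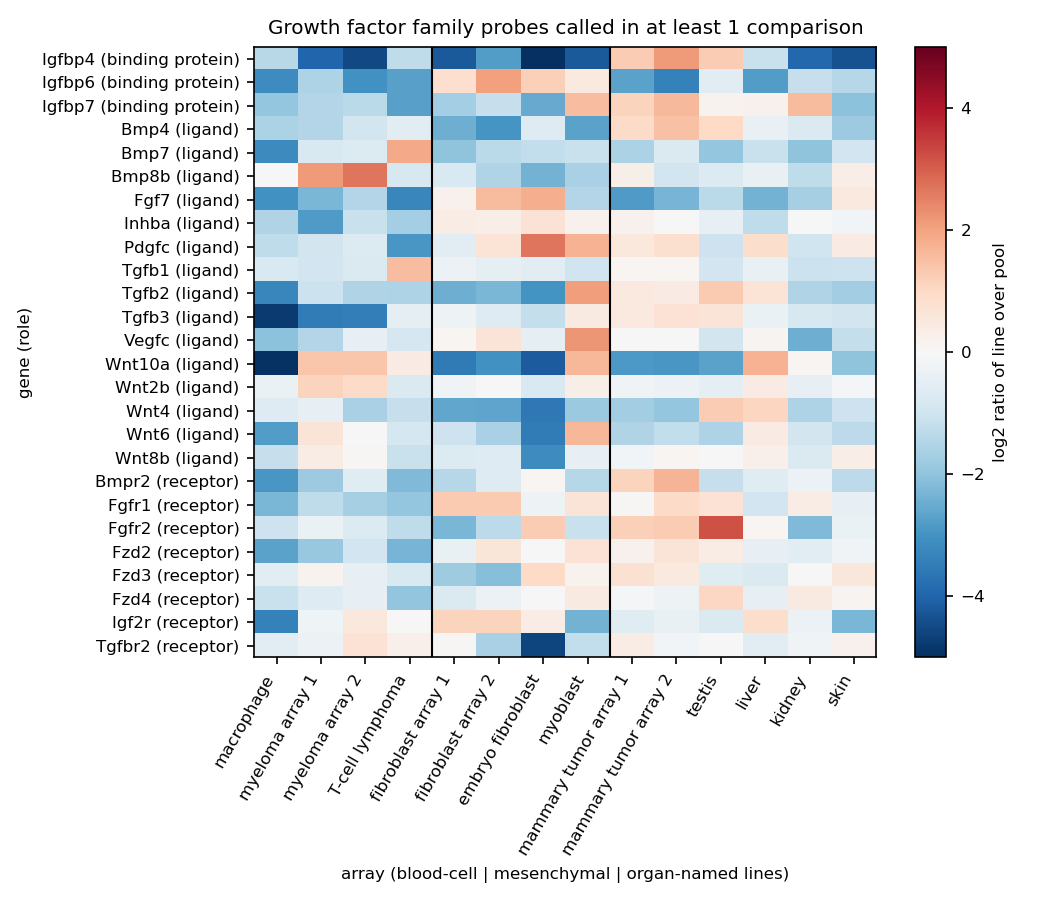
Log2 ratio of line over pool (colour, red above and blue below the pool) of the 26 growth factor probes called in at least 1 comparison (rows, with role) on the 14 arrays (columns); black lines part blood-cell, mesenchymal and organ-named lines. The Tgfb3 row is dark blue on the macrophage and both myeloma arrays (-4.78 to -3.47), and the Wnt10a row changes between red and deep blue within each lineage.

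BMP ligands pattern bone and many embryonic tissues. Bmp7 was 1.89 in T-cell lymphoma and below -0.6 on every other array, with a next highest line of -0.71 in myeloma and a lowest of -3.20 in macrophage. T-cell lymphoma was 10.6-fold higher (3.40 ± 0.45, adjusted p = 0.017), kept without each array. Macrophage was 4.59-fold lower (-2.20 ± 0.45, adjusted p = 0.0498), lost without myeloma array 2 (0.0945). Bmp8b was 2.11 and 2.69 on the myeloma arrays, and the other lines ran from -2.34 through a median of -0.75 to 0.33 in skin. Myeloma was 9.37-fold higher (3.23 ± 0.40, adjusted p = 0.00632), and the call was lost without myeloma array 2 (0.0964). Bmp4 was 0.95 and 1.48 on the mammary tumor arrays and 0.997 in testis, and below -0.3 on every other array, down to -2.44 and -2.95 in fibroblast and -2.69 in myoblast. It was 5.07-fold higher in mammary tumor (2.34 ± 0.31, adjusted p = 0.0302) and 3.89-fold lower in fibroblast (-1.96 ± 0.31, adjusted p = 0.0447). The first was lost without mammary tumor array 2 (0.483) and the second without each of the 6 arrays (0.147 at most, without fibroblast array 2).

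Fgf7, also called keratinocyte growth factor, is made by mesenchyme and acts on epithelium. It was 1.83 in embryo fibroblast, 0.20 and 1.56 on the fibroblast arrays and 0.50 in skin, and -1.36 or lower on the other 10 arrays, down to -3.26 in T-cell lymphoma. Embryo fibroblast was 11-fold higher (3.46 ± 0.58, adjusted p = 0.041), lost without mammary tumor array 1 (0.0825). The fibroblast line differed by 2.41 ± 0.42 and was not called (adjusted p = 0.0539).

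Pdgfc, a PDGF ligand that acts on mesenchymal cells through PDGFR-alpha, was 2.66 in embryo fibroblast and 1.73 in myoblast. It was 0.89 in liver, 0.54 and 0.81 in mammary tumor, 0.40 in skin, -0.52 and 0.68 in fibroblast, and between -1.28 and -0.67 in macrophage, myeloma, testis and kidney. T-cell lymphoma stood below all others at -2.91. Embryo fibroblast was 7.89-fold higher (2.98 ± 0.48, adjusted p = 0.0382) and T-cell lymphoma 8.85-fold lower (-3.15 ± 0.48, adjusted p = 0.0221). The first was lost without mammary tumor array 1 (0.0862) and the second without mammary tumor array 2 (0.0523). Pdgfb, the other PDGF ligand with a range above 5 (5.09), was highest in kidney (2.00), liver (1.52) and testis (1.37) and lowest in skin (-3.08), embryo fibroblast (-2.98) and fibroblast (-1.18 and -3.34). It was not called: its smallest adjusted p was 0.0821, in embryo fibroblast.

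Vegfc, a growth factor of lymphatic vessels, was 2.23 in myoblast against a next highest line of 0.38 in fibroblast and a lowest of -2.45 in kidney. Myoblast was 8.37-fold higher (3.07 ± 0.47, adjusted p = 0.0491), lost without mammary tumor array 1 (0.111). The second widest VEGF gene, Vegfd, ran from -2.05 in kidney to 0.96 in fibroblast and was not called. Among activin subunits Inhbc ran from -1.90 in macrophage to 1.14 in myoblast; Inhba is given with the lineage comparison. The widest Gdf ligands were Gdf3 (-1.16 in kidney to 1.16 in myoblast) and Gdf1 (-1.05 in kidney to 0.97 in skin), and the widest Egf members were the receptor Egfr (-1.77 in embryo fibroblast to -0.01 in myeloma) and Egfl6 (-1.11 in embryo fibroblast to 0.61 in myeloma). None of these was called in a line.

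Chosen after their values were seen, 4 further genes stood out in 1 line or in a few. Fgfbp1, which carries FGF from the matrix to its receptors, was 3.35 in liver and at most 0.66 elsewhere, a difference of 3.89 ± 0.68 that was not called (adjusted p = 0.172). Igf1, the growth factor that mediates growth hormone action, was 2.14 in testis with a next highest line of 0.84 in mammary tumor (adjusted p = 0.0718), and Fgf18 was 2.24 in testis (adjusted p = 0.0893). Fgf21, a metabolic hormone of the FGF family not measured on the macrophage array or myeloma array 2 and so untested, was 3.24 in myoblast, 3.46 in kidney and 1.64 in embryo fibroblast, and below 0 on the other 9 arrays.

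Promoter sequences are shown for a selection of 4 genes with calls at both ends of the line order or with a shared pair of extreme lines. Bmp4 and Igfbp7 were high in mammary tumor, and Pdgfc and Fgf7 were both highest in embryo fibroblast and lowest in T-cell lymphoma. Tgfb2, Wnt6, Igf2r and Igfbp4 were also called both higher and lower and had a promoter window, and their sequences are not shown. The RefSeq promoter table (GRCm38.p6) held 78 of the 106 genes, in 99 windows. Each sequence is the 250 bases before the start site, 5′ to 3′ on the gene's strand, with matches on either strand in capitals. The motifs searched were the GC box (GGGCGG), the TATA box (TATAAA), an E-box (CACGTG) and the AP-1 site, whose middle base is free. The windows lie at chr14:46390670-46390919 (minus strand) for Bmp4, chr5:77408046-77408295 (minus) for Igfbp7, chr3:81036166-81036415 (plus) for Pdgfc and chr2:126034408-126034657 (plus) for Fgf7.
Bmp4: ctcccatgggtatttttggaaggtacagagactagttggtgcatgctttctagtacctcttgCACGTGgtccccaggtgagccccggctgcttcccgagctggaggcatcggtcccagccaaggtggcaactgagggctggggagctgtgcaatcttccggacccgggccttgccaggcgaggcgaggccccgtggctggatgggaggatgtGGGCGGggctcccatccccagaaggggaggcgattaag
Igfbp7: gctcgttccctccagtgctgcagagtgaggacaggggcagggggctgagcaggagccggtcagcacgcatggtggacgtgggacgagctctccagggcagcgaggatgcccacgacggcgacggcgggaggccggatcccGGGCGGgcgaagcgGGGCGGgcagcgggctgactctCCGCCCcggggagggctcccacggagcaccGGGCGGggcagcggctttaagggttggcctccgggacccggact
Pdgfc: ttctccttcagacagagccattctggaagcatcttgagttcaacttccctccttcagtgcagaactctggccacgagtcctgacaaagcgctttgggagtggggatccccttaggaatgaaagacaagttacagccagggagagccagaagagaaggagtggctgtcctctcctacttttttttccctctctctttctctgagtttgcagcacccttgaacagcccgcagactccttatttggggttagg
Fgf7: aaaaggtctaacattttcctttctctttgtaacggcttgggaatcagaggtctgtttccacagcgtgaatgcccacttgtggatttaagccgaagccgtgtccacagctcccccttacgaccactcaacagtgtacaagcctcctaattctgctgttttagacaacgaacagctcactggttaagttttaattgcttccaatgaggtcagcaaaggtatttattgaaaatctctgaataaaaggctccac
Igfbp7 had 4 GC boxes and a GC content of 74.0%, Bmp4 1 GC box and 1 E-box at 63.2%, and Pdgfc (50.8%) and Fgf7 (43.6%) none of the 4 motifs. Of the other genes called higher in mammary tumor, Igfbp4 had 0 GC boxes and 1 TATA box, and Bmpr2 had 1 GC box. GGGCGG stood in 59.6% of the 99 growth factor windows and in 32.7% of all 32851 windows of that length, TATAAA in 11.1% and 12.4%, CACGTG in 7.07% and 6.02%, and the AP-1 site in 5.05% and 6.75%. A match is a description of the letters only.

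Among receptors, Tgfbr2, the type II receptor that binds TGF-beta, was -4.60 in embryo fibroblast. The other 10 lines ran from -1.23 in myoblast through a median of -0.09 to 0.25 in T-cell lymphoma, so this line lay far below all others. It was 20.3-fold lower (-4.34 ± 0.67, adjusted p = 0.0327), and lost the call without mammary tumor array 1 (0.0645). Fgfr2, a receptor tyrosine kinase for FGF, was 3.17 in testis, 1.28 in embryo fibroblast and 1.21 and 1.26 in mammary tumor, and 0.09 or lower elsewhere, down to -2.30 on fibroblast array 1. Testis was 13.3-fold higher (3.74 ± 0.44, adjusted p = 0.0491), lost without mammary tumor array 2 (0.145). Bmpr2, the type II BMP receptor, was 1.13 and 1.71 in mammary tumor with a next highest line of 0.08 in embryo fibroblast and a lowest of -2.89 in macrophage. Mammary tumor was 6.15-fold higher (2.62 ± 0.40, adjusted p = 0.0466), lost without mammary tumor array 2 (0.515).

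Igf2r, which takes IGF2 and mannose-6-phosphate proteins to lysosomes, was 1.11 on both fibroblast arrays, the highest of any line, and -3.37 in macrophage, the lowest. Myoblast (-2.36) and skin (-2.27) were also low, and all other lines lay between -0.72 and 0.88. Macrophage was 8.05-fold lower (-3.01 ± 0.40, adjusted p = 0.0157), kept without each array. Fibroblast was 3.76-fold higher (1.91 ± 0.29, adjusted p = 0.0428), lost without each of the 6 arrays (0.133 at most, without fibroblast array 2). Among Frizzled receptors, Fzd3 was -1.77 and -2.14 in fibroblast against a next lowest line of -0.77 in T-cell lymphoma, 3.77-fold lower (-1.92 ± 0.29, adjusted p = 0.0384). It was lost without each of the 6 arrays (0.138 at most, without fibroblast array 2). Fzd4 was -1.97 in T-cell lymphoma against a next lowest of -1.12 in macrophage, 3.76-fold lower (-1.91 ± 0.36, adjusted p = 0.0355), lost without mammary tumor array 2 (0.107). Fgfr1 was called 4.40-fold lower in macrophage (adjusted p = 0.0484), which was lost without each of the 6 arrays (0.0867 at most, without mammary tumor array 2), and is given below with the blood-cell lines.

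Binding proteins held the widest range of the tested probes. Igfbp4, which binds IGF and restrains its action, was 1.28 and 2.14 on the mammary tumor arrays and 1.29 in testis. It was -1.12 in liver, -1.29 in T-cell lymphoma and -1.38 in macrophage, and lay between -2.78 and -4.98 on the 8 arrays of fibroblast, kidney, myeloma, myoblast, skin and embryo fibroblast. The lines thus spanned a range of 6.69. Mammary tumor was 22.3-fold higher (4.48 ± 0.44, adjusted p = 0.0151) and myeloma 4.18-fold lower (-2.06 ± 0.44, adjusted p = 0.0396). The first was lost without mammary tumor array 2 (0.18) and the second without myeloma array 2 (0.289).

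Igfbp6, a binding protein with a preference for IGF2, was above 0 only on the 4 arrays of the mesenchymal lines: 0.84 and 2.04 in fibroblast, 1.19 in embryo fibroblast and 0.50 in myoblast. Testis was next at -0.51, and the lowest line means were those of macrophage (-3.13) and mammary tumor (-2.68 and -3.39). Fibroblast was 7.86-fold higher than the other 10 lines (2.98 ± 0.49, adjusted p = 0.0488), lost without each of the 6 arrays (0.162 at most, without fibroblast array 2). Igfbp7, a secreted protein related to the IGF binding proteins, was 1.58 in kidney, 1.54 in myoblast and 1.10 and 1.61 in mammary tumor. It was 0.20 in liver and 0.17 in testis, and between -1.17 and -2.73 elsewhere, lowest in T-cell lymphoma. Mammary tumor was 4.64-fold higher (2.21 ± 0.29, adjusted p = 0.0302) and T-cell lymphoma 4.85-fold lower (-2.28 ± 0.39, adjusted p = 0.0289), and both calls were lost without mammary tumor array 2 (0.483 and 0.0759).

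The next comparison set 3 lines of blood-cell origin, T-cell lymphoma, macrophage and myeloma, against the other 8, and most receptor probes had differences below 0. limma on the 11 line means called 3 growth factor probes, all lower (2.83% of 106): Fzd2, Fgfr1 and Inhba. Of all features 3.22% were called, 2.22% lower, so the share of growth factor probes was close to that of all features. The median difference was -0.14 over the 106 probes and 0.11 over all features, and with each array centred it was -0.25 over the 106.

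Fzd2, a Wnt receptor, was -2.68 in macrophage, -1.90 and -0.95 on the myeloma arrays and -2.34 in T-cell lymphoma. The other 8 lines ran from -0.52 in kidney through a median of 0.06 to 0.73 in myoblast, so the groups did not overlap. The blood-cell lines were 4.66-fold lower (-2.22 ± 0.35, adjusted p = 0.00376), and this was the only one of the 46 calls in the 13 comparisons that was kept in every alternative fit run for it. Within the runs of adjacent image numbers that held lines of both kinds, the difference was -2.04 and -2.26. Fgfr1, an FGF receptor of mesenchymal cells, was -2.28 in macrophage, -1.28 and -1.67 in myeloma and -1.93 in T-cell lymphoma, against -0.94 (liver) through 0.43 to 1.30 (fibroblast). The groups lay apart, 4.40-fold lower in blood-cell lines (-2.14 ± 0.43, adjusted p = 0.0178), -2.40 and -2.24 within runs. The call was lost without the macrophage line (-1.94, adjusted p = 0.0664) or the T-cell lymphoma line (-2.12, adjusted p = 0.0668), with quantile normalization (-1.81, adjusted p = 0.0614) and with arrays scaled to one spread (-1.92, adjusted p = 0.0524).

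Inhba, the subunit of activin A, was -1.51 in macrophage, -2.84 and -1.12 in myeloma and -1.70 in T-cell lymphoma, against -1.25 (liver) through 0.08 to 0.74 (embryo fibroblast). The line means did not overlap, although myeloma array 2 lay above the liver array. The blood-cell lines were 3.21-fold lower (-1.68 ± 0.37, adjusted p = 0.0286), -2.09 and -1.29 within runs. The call was lost without myeloma array 1 (-1.40, adjusted p = 0.0676) and without the macrophage (0.0539), myeloma (0.0889), T-cell lymphoma (0.0905) or fibroblast line (0.0536). Quantile normalization (0.114) and arrays scaled to one spread (0.105) also ended it. So did a fit over arrays with the array number as a covariate and the line as a random block (0.0586). The count of called growth factor probes was 1 without the macrophage line.

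In 5 probes every blood-cell line mean lay below the other 8, against 3.53% of all features: these 3, Fzd4 (-1.33 ± 0.38, adjusted p = 0.0731) and Fzd7 (-0.93 ± 0.31, adjusted p = 0.112). In 1, Bmp5, every one lay above, by a margin of 0.001 (4.27% of all features). The Fzd4 gap was also narrow: the highest blood-cell line mean was -0.526 and the lowest of the others -0.498. The differences of all 8 Frizzled probes were below 0, from -2.22 to -0.05 with a median of -0.50, and stayed so with arrays centred, quantile normalized or scaled to one spread. Without myeloma array 2, the macrophage line or the mammary tumor line, 6 of 8 were below 0, and 7 were without fibroblast array 1 or without the myeloma, T-cell lymphoma, fibroblast or testis line. Over all receptors 20 of 24 differences were below 0, with a median of -0.62, and 16 without myeloma array 2. Over ligands 31 of 60 were below 0, with a median of -0.03. Binding proteins had 7 of 9 below 0, intracellular FGF homologues 1 of 5 and the other probes 3 of 8. Of all features 42.7% were below 0, and no sign count was tested. All 4 VEGF ligands were below 0 with a median of -0.94, and none was called (adjusted p from 0.266 to 0.697); without the T-cell lymphoma line 3 were.

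**Figure D5:**
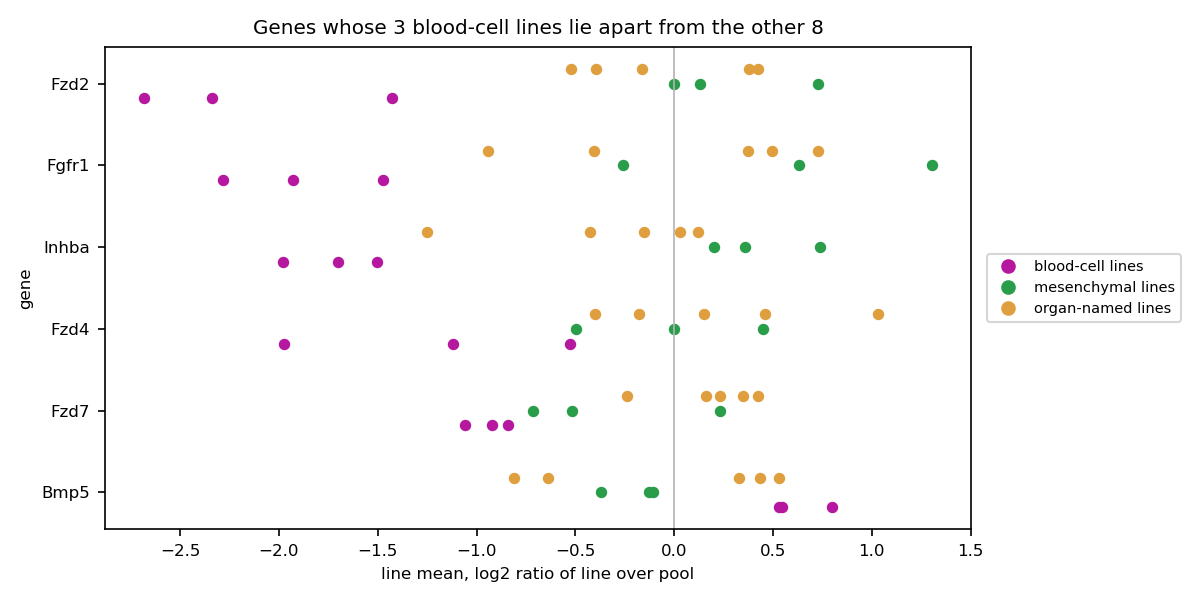
Line means (x axis, log2 ratio of line over pool) of the 6 growth factor genes (y axis) whose 3 blood-cell lines (purple) do not overlap the 3 mesenchymal (green) and 5 organ-named lines (orange). The purple points of Fzd2 end at -1.43 and the others start at -0.52, while the gap is 0.001 for Bmp5.

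The 3 lines grouped as mesenchymal by their labels (fibroblast, embryo fibroblast, myoblast) were compared with the 5 organ-named lines, without the blood-cell lines. The fibroblast markers did not all follow this grouping. Dcn and Thbs2 were highest in fibroblast and Col1a1 and Postn in myoblast. Col3a1 and Pdgfra were highest in testis, an organ-named line (1.545 and 0.686). limma called 0 of 106 growth factor probes and 0.0% of all features. At an unadjusted p under 0.05 there were 18 growth factor probes (17.0%) and 510 features (6.87%). Igfbp6 had the smallest p: the mesenchymal line means ran from 0.50 to 1.44 and the organ-named ones from -3.04 to -0.51, a difference of 2.82 ± 0.57 that was not called (adjusted p = 0.598). It was 3.89, 2.17 and 3.68 within the 3 runs of image numbers that held both kinds. Inhba also lay above without overlap, by 0.77 ± 0.38 (0.687% of all features lay above so). Below without overlap lay 7 of 106 probes (3.72% of all features): Tgfbr1, Tgfbr2, Fgf14, Fgf1, Wnt4, Wnt3a and 1 Bmp1 probe. Their differences ran from -2.26 for Wnt4 to -0.47 for Bmp1, and the other Bmp1 probe overlapped (-0.02). Most gaps were narrow beside the spread between 2 arrays of a line. The highest mesenchymal and lowest organ-named means were 0.068 and 0.084 for Tgfbr1, -0.644 and -0.634 for Wnt3a, and -1.861 and -1.834 for Wnt4. They were -0.349 and -0.322 for Fgf1, -0.596 and -0.572 for Bmp1, and -0.782 and -0.558 for Tgfbr2, the widest. Tgfbr1 and Tgfbr2 together form the TGF-beta receptor, and their differences were -1.49 ± 0.45 and -2.12 ± 0.71, neither called (adjusted p = 0.697 for both).

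The other genes of these pathways were taken from 10 lists, of which 137 of 192 genes were tested on 143 probes. Over the 11 line comparisons these gave 24 higher and 34 lower calls, 3.69% of their tests, against 1.89% over all features. Single lists ran from 2.27% to 6.82%. These calls come from the main fits on the same few arrays, and no alternative fit is given for them here. Among TGF-beta and BMP receptors and Smads there were 2 higher and 5 lower calls, led by the coreceptor Eng (-2.43 in myeloma) and the transducer Smad3 (-2.41 in macrophage). Among their antagonists and latent binding proteins there were 4 and 5, led by Fstl1 (5.11 in myoblast) and the BMP antagonist Grem1 (4.51 in fibroblast). Their target genes had 3 and 6. Id1, a BMP target, differed by -3.52 in T-cell lymphoma, and Ccn2, a matrix protein, by 3.38 in embryo fibroblast, -3.45 in macrophage, -3.37 in T-cell lymphoma and -2.21 in myeloma. Wnt coreceptors, transducers and transcription factors had 3 and 4, led by Lef1 (3.90 in T-cell lymphoma) and Wls, which carries Wnt proteins out of the cell (-3.44 in myeloma). Wnt antagonists and targets had 2 and 4, led by Ccn5 (4.82 in mammary tumor) and cyclin D1, Ccnd1 (-4.37 in T-cell lymphoma).

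FGF and receptor kinase transducers and feedback regulators had 5 higher and 3 lower calls, with Etv1 at 2.73 in macrophage and Spry1, an inhibitor of FGF signalling, at 2.62 in testis. EGF family ligands and receptors under other symbols had 1 and 2, all of Ereg, an EGF receptor ligand: 2.71 in fibroblast, -2.85 in macrophage and -2.45 in myeloma. VEGF and PDGF receptors and related genes had 0 and 2, Nrp1 (-2.87) and Kitl (-1.71), both in myeloma. Another Kitl probe was not called, with a mean of -0.45 in myeloma and other lines from -0.72 to 0.81. The insulin and IGF pathway had 2 and 1, with Htra1, a protease that cleaves IGF binding proteins, at -5.25 in macrophage and Akt2 at 2.08 in T-cell lymphoma. Other receptor kinase growth factors had 3 and 3, with Gas6 at 8.14 in myeloma and Bdnf at -3.33 in T-cell lymphoma. In the blood-cell comparison 11 of the 143 probes were called, 0 higher and 11 lower, where 0.997% of all features were called higher and 2.22% lower. They were Acvr1, Ltbp1, Ltbp3, Ccn2 (-3.76), Lrp5, Sfrp1, Ccnd1, Ereg (-2.91), Bdnf and both probes of the receptor Erbb2 (-1.61 and -1.42).

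Probes of the same gene did not always follow each other over the 11 lines. Pearson's r was 0.77 for Igf1r, 0.49 for Pdgfra, -0.01 for Bmp1 and -0.24 for Fgf11, and the median absolute difference between the 2 probes was 0.41, 0.88, 0.90 and 0.90. The other 80 tested growth factor probes were called in none of the 13 comparisons.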

How the data were processed

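The deposited values are log2 ratios, as read here, 1 per spot, made by the authors from arrays with 2 colours; how spots were corrected, filtered or normalized is not stated in the labels. The 80 Gapdh spots were averaged, which left 7601 features, of which 7423 had a value in all 11 lines and were tested; probes of 1 gene were tested separately. Every line was in Cy5, so a dye effect of a probe enters all ratios alike. limma 3.58.1 in R 4.3.3 (lmFit and eBayes, two-sided, Benjamini-Hochberg within each comparison) compared each line with the other 10, weighted equally, over 14 arrays (3 residual degrees of freedom plus 3.75 from moderation), and the lineages on line means. Figures were drawn with matplotlib 3.10.9. In simulations 100 of 100 probes changed by 4 log2 units were recovered for myeloma and 97 of 100 for the blood-cell comparison. Of the unchanged probes 12 and 15 were also called. Smaller changes, as most called differences are, were not simulated, and neither was a change in a line with 1 array. In the myeloma simulation the other lines shared 1 mean per probe, and the blood-cell simulation had no spread between arrays of a line. The recovery therefore does not carry over to most of the calls given here.

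The probes, lists and comparisons were chosen with earlier results of these data known. Named with values are every growth factor probe called in any of the 13 comparisons, the 2 with the widest range in each family, and the 2 called genes with the largest difference in each pathway list; others are said to have been chosen after their values were seen. The alternatives were centring, quantile normalization and scaling of arrays, probes on all 14 arrays, and leaving out arrays or lines. Further ones took the run of image numbers as a random block or the array number as a covariate. In these the lineages were compared over arrays and not line means, with the line as a random block only beside the array number. Gene symbols are those of the platform table. The reference of the first mammary tumor array is labelled with further letters, and its identity with the other references is unknown here.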

Additional observations from a re-analysis of the deposited data

How the results depend on the processing

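Of the 46 calls of growth factor probes, 39 were kept with each array centred on its median, 26 with quantile normalization, 10 with arrays scaled to one spread (MAD), 46 with probes on all 14 arrays and 37 with the run of image numbers as a random block; 1, Fzd2 in the blood-cell comparison, was kept in all, and none reversed. Counts of called probes moved as follows. Centred arrays gave 5 in the blood-cell comparison, 4 in embryo fibroblast and 2 in testis. Quantile normalization gave 1 in T-cell lymphoma, 1 in the blood-cell comparison, 3 in embryo fibroblast, 1 in liver, 2 in macrophage, 14 in mammary tumor, 3 in myeloma and 5 in testis. Scaling to one spread gave 0 in T-cell lymphoma, embryo fibroblast, fibroblast, macrophage, myoblast and testis, 1 in the blood-cell comparison, 12 in mammary tumor and 3 in myeloma. With the image run as a block there were 6 in the blood-cell comparison, 15 in fibroblast, 1 in mammary tumor, 0 in myoblast and 4 in testis. For the blood-cell comparison that fit used the 14 arrays and not the line means. The 2 arrays of a line were thus counted separately, and its count of 6 is not comparable with the main fit.

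Leaving out 1 array gave 1 to 13 calls in T-cell lymphoma, 0 to 12 in embryo fibroblast, 0 to 1 in fibroblast, 3 to 7 in macrophage, 0 to 7 in mammary tumor, 0 to 6 in myeloma, 0 to 6 in myoblast and 0 to 2 in testis; leaving out 1 array or line gave 1 to 4 in the blood-cell comparison. With arrays left out so that a line had 1 array, that array is assumed to vary like the others. The mesenchymal comparison and the skin line had 0 calls throughout, as had the count of probes unique to a line.

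The array number in the labels is shared by number only and pairs no samples. With it as a covariate, 45 of the 46 calls were kept. There were then 18 calls in T-cell lymphoma, 27 in embryo fibroblast, 10 in fibroblast, 8 in kidney, 1 in liver and 16 in macrophage. There were 12 in mammary tumor, 15 in myeloma, 13 in myoblast and 7 in testis. The blood-cell comparison, here fitted over arrays with the line as a random block, had 3.

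Both measures of spread were recomputed with settings chosen after seeing the data: the median range lay between 2.31 and 2.67, and 20 to 24 probes exceeded the 90th percentile of all features, over 3 scalings and 6 arrays left out. The signs of the Frizzled, VEGF and receptor differences without single arrays and lines were also chosen so. Only 3 lines had 2 arrays, so line calls rest on 3 residual degrees of freedom.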
